A study of Mus musculus with 18 samples.

Results

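MiR-155 target genes are followed here through peak lists of the histone demethylase KDM2A and of its substrate, the dimethylated H3 mark H3K36me2, in hypoxic B cells. The 8 genes were taken by name as known targets of the microRNA in B cells: Spi1, Socs1, Inpp5d, Bach1, Cebpb, Ets1, Tab2 and Fos. Each symbol matched 1 of 55450 genes of the GENCODE M21 annotation of the mouse genome (GRCm38), of which 21951 are protein-coding. The rule itself uses no value of the lists. The series held 18 samples of splenic B cells from mice on a C57BL/6 background, either Mir155-sufficient (WT) or Mir155-deficient (KO). Each genotype gave 3 KDM2A, 3 H3K36me2 and 3 input libraries, and 12 peak lists were used, 1 for each KDM2A and H3K36me2 library. Replicate 1 came from male and replicates 2 and 3 from female mice in every group. The ages of the single animals were not given in the labels. B cells had been enriched by depleting cells carrying CD43, Ter119 and CD4, and both genotypes received the same culture of 2 days at 1% O2 and 5% CO2 with anti-CD40 at 1 µg/ml, an F(ab')2 fragment against IgM at 5 µg/ml and IL-4 at 4 ng/ml. Nothing in the labels stated whether the libraries of a group came from separate cultures, so p-values measure the spread between these libraries.

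A microRNA guides its protein complex to messenger RNAs by pairing its seed, the bases near its 5′ end, with sites that lie mostly in 3′ UTRs, and the paired message is then repressed. MiR-155 is induced when B cells are activated and is needed for strong germinal centre responses. KDM2A removes methyl groups from H3K36me2 and carries a CXXC zinc finger that binds unmethylated CpG, so it is found at CpG-rich promoters, whereas H3K36me2 spreads in broad domains over genes and between them. The 8 genes act at different steps of B cell activation. Spi1 (PU.1), Ets1, Cebpb, Bach1 and Fos encode transcription factors, Socs1 encodes an inhibitor of cytokine receptor signalling, Inpp5d encodes the lipid phosphatase SHIP1, which restrains signalling through PI3K, and Tab2 encodes an adaptor of the kinase TAK1 upstream of NF-κB. The lists hold chromatin only, so the RNA and protein of these genes were not analysed here.

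The mature microRNA and its matches in the 3′ UTRs are shown first, since the genes were taken as its targets. In the RefSeq table (GRCm38.p6), mature miR-155-5p is encoded at chr16:84714143-84714165 on the plus strand. It is printed below with its seed, bases 2 to 8, in capitals, followed by the 3′ UTR stretch of each gene (GRCm38, 23 bases, strand in parentheses) whose capitals mark the 8-base match AGCATTAA.
mmu-miR-155-5p: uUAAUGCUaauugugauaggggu
Spi1, chr2:91115422-91115444 (+): gaccccgccggccatAGCATTAA
Socs1, chr16:10784206-10784228 (-): ctgccgctgtgccgcAGCATTAA
Inpp5d, chr1:87719823-87719845 (+): gagatgtttttaaaaAGCATTAA
Bach1, chr16:87732173-87732195 (+): ctctatgaacagtttAGCATTAA
Cebpb, chr2:167690351-167690373 (+): accttttccgtttcgAGCATTAA
Ets1, chr9:32757193-32757215 (+): cactctgggttttaaAGCATTAA
Tab2, chr10:7906691-7906713 (-): tgccataaggtagaaAGCATTAA
An 8-base match stood in the annotated 3′ UTR of 7 of the 8 genes, and Bach1 held a further 7-base match AGCATTA. In Fos neither motif was found on the sense strand of the 3′ UTR. Among all 21022 protein-coding genes with a 3′ UTR, 3.19% held the 8-base motif and 8.81% held the 7-base motif, which lies within it. The median 3′ UTR length was 1484 bases for the 8 genes and 1016 bases for all. A match is a description of the letters and not a measured binding event. No H3K36me2 list had a peak over any of these sites. The Spi1 site, which lies near the 3′ end of the gene, was under a KDM2A peak in 3 of 3 WT lists and in 0 of 3 KO lists. The Socs1 site was under a KDM2A peak in 2 WT lists and 1 KO list, the Cebpb site in 1 WT list, and the sites of Inpp5d, Bach1, Ets1 and Tab2 in none. The Spi1 site was singled out after these values were seen, and the difference was not tested.

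The lists differed in extent between genotypes, which bears on every level below. KDM2A peaks covered between 0.770% and 1.11% of the genome in WT and between 0.433% and 0.715% in KO. H3K36me2 peaks covered between 4.17% and 5.32% in WT and, in KO, 3.63% in replicate 1 but 1.59% and 1.44% in replicates 2 and 3. The H3K36me2 list of KO replicate 1 also held 106720 peaks, more than the 37447 and 45180 of the other KO lists. This list stood apart from the others of its group, and the H3K36me2 tests below are given with and without it. It is the male list of its group, so without it female KO lists are set against WT lists of both sexes. Read depth is unknown, since the lists give no counts, so no list could be scaled to its reads. A gene was called bound where a KDM2A peak lay within 2 kb of a start site in 2 or more of the 3 lists of a genotype. By this rule 5 of 6 B cell marker genes (among them Cd79a, Cd79b and Pax5) were bound in both genotypes and Ms4a1 in WT only, with a peak in 3 WT lists and 1 KO list. None of 4 T cell genes (Cd3e, Cd3g, Cd4, Cd8a) or 3 myeloid genes (Lyz2, Itgam, Adgre1) was bound by this count, although Cd8a had a peak in 1 WT list and Adgre1 in 1 list of each genotype. Peaks are not expression, and these counts describe promoters only.

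KDM2A was present at the promoters of all 8 miR-155 targets in both genotypes. A promoter window comprised all bases within 2 kb of any annotated transcription start site (TSS), and a peak counted when it overlapped the window by at least 1 base. By the count of 2 or more lists 8 of 8 targets were bound in both genotypes and 0 in 1 genotype only, against 19.6% of all genes and 39.4% of protein-coding genes bound in both. A peak was present in all 6 lists at 6 of 8 targets, against 26.4% of protein-coding genes. The exceptions were Bach1, with no peak in WT replicate 3, and Ets1, with no peak in the promoter window in KO replicate 1. With peaks limited to a −log10 q of 2 or more, Spi1 and Bach1 were no longer bound in both genotypes, and with the TSS at the gene's 5′ end alone Ets1 was not.

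The DNA at the 5′ ends differed among the targets. The number of CpG dinucleotides within 500 bases of the gene's 5′ end was 146 for Tab2, 145 for Cebpb, 102 for Bach1, 78 for Socs1 and 69 for Fos. It was 21 for Inpp5d, 14 for Spi1 and 11 for Ets1. At Spi1 and Ets1 these counts describe DNA away from the KDM2A peak found in the most lists, and no list had a KDM2A peak within 2 kb of the Ets1 5′ end. For comparison the median was 41 over protein-coding genes, 70 over those with a KDM2A promoter peak in all 6 lists and 11 over those with a peak in none. The promoters of 3 targets are printed as RefSeq gives them (GRCm38.p6, the 250 bases before the start, in the direction of transcription), with every CG in capitals, to show this range from dense to sparse.
Cebpb, chr2:167688665-167688914 (+): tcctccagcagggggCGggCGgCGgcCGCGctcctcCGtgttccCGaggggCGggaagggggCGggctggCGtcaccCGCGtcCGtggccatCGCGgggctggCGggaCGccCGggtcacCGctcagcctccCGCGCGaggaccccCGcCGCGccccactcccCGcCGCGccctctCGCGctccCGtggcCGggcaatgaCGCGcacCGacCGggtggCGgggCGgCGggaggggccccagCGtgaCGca
Socs1, chr16:10785537-10785786 (-): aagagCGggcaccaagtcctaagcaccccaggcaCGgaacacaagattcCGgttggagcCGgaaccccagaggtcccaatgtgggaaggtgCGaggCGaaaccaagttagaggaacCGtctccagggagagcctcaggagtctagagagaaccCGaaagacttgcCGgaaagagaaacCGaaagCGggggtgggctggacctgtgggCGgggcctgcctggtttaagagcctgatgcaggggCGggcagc
Inpp5d, chr1:87620062-87620311 (+): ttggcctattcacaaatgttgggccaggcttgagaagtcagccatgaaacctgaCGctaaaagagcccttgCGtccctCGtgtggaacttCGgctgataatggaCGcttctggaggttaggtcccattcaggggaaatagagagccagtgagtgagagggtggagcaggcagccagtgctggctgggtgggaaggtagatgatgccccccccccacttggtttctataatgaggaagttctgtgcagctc
The Cebpb stretch held 41 CG, the Socs1 stretch 13 and the Inpp5d stretch 5, and the median over 27025 promoters of the same length was 6, with 91.7% holding at least 1. A KDM2A peak overlapped the Cebpb and Socs1 stretches in 3 WT and 3 KO lists, and the Inpp5d stretch in 3 WT and 2 KO lists.

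The highest KDM2A promoter peak of most targets ranked high among all peaks of its list in WT. The same percentile was not taken for other bound promoters, so this level is not shown to be particular to the targets. The value is the fold of the highest peak in the promoter window over control, as the authors' peak caller gave it for that list. The lists' own median folds lay between 2.61 and 2.87. At the 8 targets the highest promoter fold lay between 2.40 and 3.91 over both genotypes. As a percentile among all peaks of the same list, it averaged between 84.1 and 89.8 in WT at Socs1, Inpp5d, Cebpb, Ets1, Tab2 and Fos, 69.6 at Spi1 and 44.1 at Bach1, where 2 WT lists had a peak. In KO these means lay between 43.1 (Spi1) and 89.3 (Ets1, 2 lists). Single lists differed widely, and Inpp5d ran from a percentile of 3.44 in KO replicate 2 to 98.6 in KO replicate 1.

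Among the transcription factors, Cebpb had folds of 3.46, 3.37 and 3.02 in WT replicates 1, 2 and 3 and of 2.88, 2.80 and 2.92 in KO. Every KO list was below every WT list for Cebpb, although the WT and KO values nearest each other were 3.02 and 2.92. Spi1 had folds of 3.02, 3.08 and 2.73 in WT and of 2.80, 2.62 and 2.66 in KO, so the groups met at WT replicate 3 and KO replicate 1. Fos, a subunit of the AP-1 factor, had 3.36, 3.04 and 3.32 in WT and 3.08, 3.42 and 2.98 in KO, where the KO range enclosed that of WT. Bach1, a heme-regulated repressor, had 2.40 and 3.20 in the 2 WT lists with a peak and 3.24, 3.12 and 2.64 in KO. Ets1 had 2.90, 3.29 and 3.40 in WT and 3.80 and 3.04 in the 2 KO lists with a peak. Neither Bach1 nor Ets1 separated the genotypes.

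Among the signalling genes, Socs1 had folds of 3.35, 3.50 and 2.94 in WT and of 2.93, 2.68 and 3.27 in KO. Inpp5d showed the widest spread, with 3.07, 3.58 and 3.15 in WT and 3.91, 2.47 and 3.18 in KO, and the highest and lowest of its 6 values both came from KO lists. Tab2 had 3.06, 3.39 and 3.70 in WT and 3.52, 3.13 and 2.95 in KO. The groups overlapped in these 3 genes.

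The difference between genotypes was tested with limma on log2 fold after each list was centred on its median, over the 7246 genes with a peak in all 6 lists, with Benjamini-Hochberg adjustment at 0.05. No gene was called (0% of genes tested), while 377 had an unadjusted p under 0.05. The 6 targets tested, all but Bach1 and Ets1, had log2 changes (KO minus WT) from −0.13 to 0.03, with a median of −0.04 against 0.00 over all genes tested, and adjusted p from 0.912 to 0.998 by limma. Cebpb had the lowest of these changes, −0.13 with a standard error of 0.10, and leaving out 1 list moved it between −0.18 (WT replicate 3) and −0.066 (WT replicate 1). After centring, every KO list was below every WT list at 1 of 6 targets, Cebpb, against 5.45% of all genes tested, and above at 0 of 6, against 5.38%. When folds were ranked within their list, every KO list was lower at Spi1 as well as Cebpb, against 11.5% of all genes tested lower and 1.97% higher, and the median over all genes tested was itself −5.94 percentile points. The Cebpb window also holds a start site of Tmem189, so its peak cannot be assigned to 1 of these genes.

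The percent of promoter bases under KDM2A peaks also differed among the targets. The coverage is the percent of bases in the promoter window that lie under peaks, so it also takes a value where a list has none. It depends on the length of the windows, which ran from 4.00 kb at Socs1 and Cebpb to 13.4 kb at Inpp5d. By this percent Fos and Socs1, both short genes, were the most covered. In bases under KDM2A peaks Inpp5d had 5192, 3615 and 1874 in WT. Socs1 had 3069, 3574 and 2603 bases in WT, and Fos 4735, 3377 and 3038. Fos had 94.3%, 67.2% and 60.5% in WT and 72.2%, 68.6% and 89.4% in KO. Socs1 had 76.7%, 89.3% and 65.1% in WT and 85.2%, 23.4% and 72.0% in KO, where replicate 2 was the lowest of all 6 lists. In WT the mean coverage of 77.0% for Socs1 was above that of 99.1% of protein-coding genes, and the mean of 74.0% for Fos was above that of 98.9%. The groups of both genes overlapped.

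Cebpb followed with 59.6%, 38.3% and 54.0% in WT and 38.7%, 37.8% and 44.5% in KO. Inpp5d had 38.8%, 27.0% and 14.0% in WT and 12.2%, 1.95% and 27.1% in KO, and Spi1 had 24.3%, 21.7% and 17.9% in WT and 26.1%, 13.7% and 9.64% in KO. The mean of Inpp5d was 26.6% ± 12.4 across the WT lists and 13.7% ± 12.7 across the KO lists (SD, n = 3 each), a difference close to the spread within each group. Ets1 ranged from 7.59% to 29.3% in WT and from 0% to 32.8% in KO, Tab2 from 9.19% to 15.8% and from 8.40% to 13.2%, and Bach1 from 0% to 27.8% and from 11.0% to 16.6%. These 3 genes had the lowest means in WT, whereas in KO the mean of Inpp5d (13.7%) was below that of Ets1 (14.3%). Tab2 and Bach1 had at most a single peak in their windows. The Tab2 peak was 1726, 1224 and 2103 bases long in WT and 1554, 1760 and 1120 bases in KO, longer than the median KDM2A peak of its list (565 to 699 bases), but the Tab2 windows together span 13.3 kb.

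By limma on log2(percent + 1) over 18051 genes with a mean coverage of at least 1%, 0% of genes were called, and 1331 had an unadjusted p under 0.05. All 8 targets were tested. Their log2 changes ran from −1.32 for Inpp5d to 1.12 for Bach1, with adjusted p from 0.684 to 0.927 by limma, and 6 of 8 were below 0. Their median was −0.38, and that of all genes tested was −0.59. Leaving out 1 list turned the sign of Socs1, Bach1, Ets1, Tab2 and Fos, and moved the change of Inpp5d between −2.04 (without KO replicate 3) and −0.41 (without KO replicate 2) and that of Spi1 between −0.83 and −0.15. At 0 of 8 targets was every KO list below every WT list, against 11.0% of all genes tested, and at 0 of 8 above, against 1.00%. When each coverage was divided by the percent of the genome under peaks in its list, the log2 changes of Spi1, Socs1, Cebpb and Tab2 changed sign to positive values from 0.22 to 0.56 while the median over all genes tested moved to 0.0052, and every KO list was above every WT list for Cebpb and Fos (9.04% of all genes tested).

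**Figure D1:**
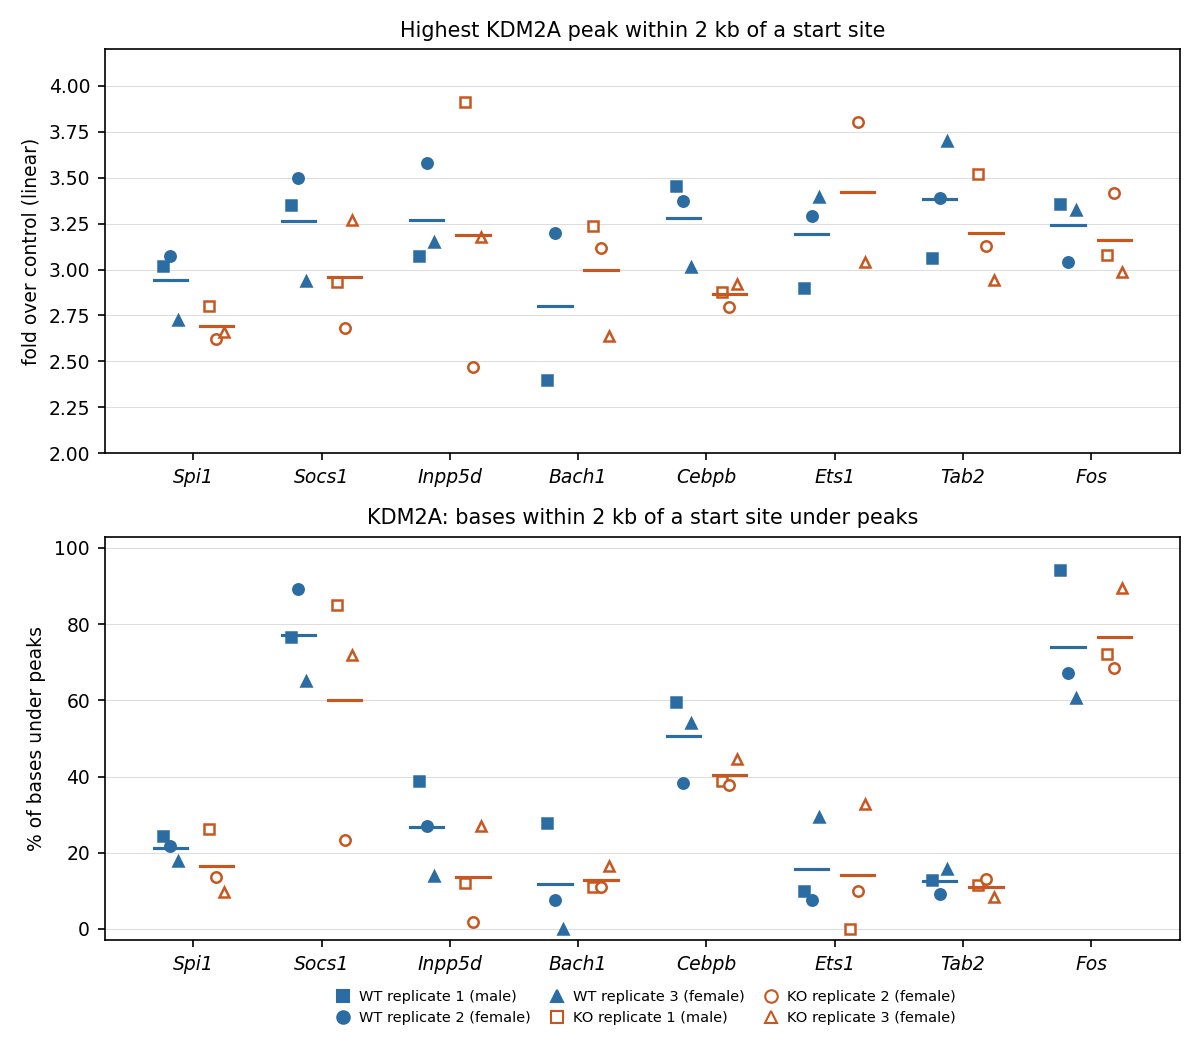
KDM2A at the promoters of the 8 miR-155 targets, with the highest peak fold over control in the upper panel (axis from 2) and the percent of promoter bases under peaks in the lower panel. Each point is 1 list, filled for WT and open for KO, and bars are means over the lists with a value. WT and KO points overlap for 7 of the 8 genes in the upper panel, the exception being Cebpb, and for all 8 in the lower panel.

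Over the gene bodies KDM2A showed 3 arrangements. Short genes lay largely under KDM2A: the gene body of Cebpb (1.504 kb) was covered between 63.0% and 100% in WT and between 78.3% and 82.0% in KO, that of Fos (3.384 kb) between 55.6% and 100% and between 48.0% and 84.0%, and that of Socs1 (3.297 kb) between 51.3% and 100% and between 24.4% and 91.8%. Tab2 had 1 KDM2A peak in each of the 6 lists, over its 5′ end, and Bach1 had its promoter peak and at most 1 further peak. The long genes had several scattered peaks. Over Inpp5d (100.196 kb) there were 10, 6 and 8 peaks in the WT lists and 6, 7 and 4 in the KO lists, and over Ets1 (121.6 kb) 9, 7 and 5 in WT and 2, 5 and 5 in KO. At the 5′ end of Inpp5d all 6 lists had a peak within 2 kb.

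At Spi1 and Ets1 the KDM2A peak present in the most lists lay at an internal start site rather than at the 5′ end. Spi1 (chr2:91082390-91115756, plus strand) has annotated start sites at its 5′ end and 13.7 kb and 14.4 kb downstream of it. A KDM2A peak lay between 13.9 kb and 16.0 kb downstream in all 6 lists, with folds of 3.02, 3.08 and 2.70 in WT and of 2.62, 2.57 and 2.49 in KO. Each of the 3 KO folds was below each of the 3 WT folds, a comparison chosen after the values were seen and not tested. These folds were not centred, and the median promoter fold change over all genes tested was −0.061 without centring. In the promoter windows as tested, the folds of Spi1 overlapped between genotypes. Around the 5′ end itself the lists held peaks at differing positions, and WT replicate 1 held none within 2 kb. Ets1 (chr9:32636221-32757820, plus strand) has 4 start sites far downstream of its 5′ end, from 59.8 kb to 60.2 kb. There a peak was found in 3 WT lists and in KO replicates 2 and 3. The widest reached from 58.8 kb to 61.6 kb, in KO replicate 3, and no list had a KDM2A peak within 2 kb of the 5′ end. Other positions recurred in fewer lists. At Ets1 these were a stretch from 15.4 kb to 16.4 kb, with a peak in 3 WT lists and KO replicate 3, and one from 35.9 kb to 37.0 kb, with a peak in WT replicates 1 and 3 and KO replicates 2 and 3. At Spi1 all 3 WT lists had peaks between 3.2 kb and 4.4 kb and between 32.0 kb and 33.5 kb, where no KO list had one. These stretches were picked from the maps and not tested, and the KO lists held fewer KDM2A peaks in all (15387 to 21705, against 23372 to 29105 in WT).

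By group mean, H3K36me2 covered the promoters of Spi1 and Ets1, the 2 ETS-family transcription factors of the set, more than those of the other targets. In KO replicate 2, however, Spi1 was at 0% and Cebpb at 26.2%. The promoter windows of Spi1 were covered to 72.9%, 76.1% and 70.0% in WT and to 76.9%, 0% and 35.4% in KO. KO replicate 1 was above all WT lists and KO replicate 2 had no peak there, so the spread within KO was wider than the difference between genotypes. Those of Ets1 were covered to 60.8%, 71.5% and 59.2% in WT and to 55.3%, 32.8% and 23.7% in KO, every KO list being lower than every WT list. In WT the mean promoter coverage of 73.0% for Spi1 was above that of 99.3% of protein-coding genes, and the 63.9% for Ets1 above that of 98.8%.

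The other promoters carried less of the mark, with WT means from 3.31% for Tab2 to 31.0% for Cebpb, against a median of 1.52% over protein-coding genes. The WT mean of Cebpb was above that of 92.7% of protein-coding genes, and those of Socs1 (18.2%) and Bach1 (13.8%) above 84.2% and 79.4%. Cebpb had 19.0%, 36.8% and 37.1% in WT and 11.1%, 26.2% and 0% in KO, and Socs1 1.12%, 19.8% and 33.6% in WT and 22.3%, 0% and 16.6% in KO. Inpp5d ranged from 5.87% to 12.8% in WT and from 2.09% to 14.7% in KO. Tab2 was at 0% in 3 of 6 lists and reached at most 6.0%, in WT replicate 3. Bach1 was covered to 41.4% in WT replicate 1 and Fos to 19.4% and 7.01% in WT replicates 1 and 2, and both were at 0% in the other WT lists and in all 3 KO lists. Apart from Ets1, these groups overlapped.

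By limma over 21559 genes, 0% were called for promoter H3K36me2, and 3165 had an unadjusted p under 0.05, of which 3141 were lower in KO. All 8 targets had log2 changes below 0, from −2.45 for Fos to −0.48 for Inpp5d, with a median of −1.39 against −1.44 over all genes tested and adjusted p from 0.346 to 0.851 by limma. Spi1 had a log2 change of −2.38 with a standard error of 1.19, and Ets1 of −0.84 with a standard error of 0.59. Leaving out 1 list moved the change of Spi1 between −3.61 and −0.47, that of Cebpb between −3.14 and −0.76, that of Fos between −3.67 and −1.50, that of Tab2 between −1.83 and −0.42 and that of Ets1 between −1.16 and −0.57. It turned the sign of Socs1 (−1.85 to 0.82) and Inpp5d (−0.998 to 0.17) and brought Bach1 to 0 (−2.70 to 0). At 1 of 8 targets, Ets1, every KO list was below every WT list, against 18.6% of all genes tested, and at 0 of 8 above, against 0.218%. Without KO replicate 1 the number of genes called rose to 1807, of which 1806 were lower in KO (8.38% of those tested), and no target was among them. The changes of the 8 targets then ran from −3.61 for Spi1 to −0.61 for Tab2, with a median of −1.63 against −1.81 over all genes tested and adjusted p from 0.161 to 0.793 by limma. Every remaining KO list was below every WT list at 2 of 8 targets, Spi1 and Ets1, against 34.0% of all genes tested. The KO mean without that list was 17.7% at Spi1 and 28.3% at Ets1. Division by the genome share of each list moved the median over all genes tested from −1.44 to −0.54. With this common shift Socs1 turned to a change of 0.34, Inpp5d to 0.51 and Ets1 to 0.38, at Ets1 with every KO list above every WT list (1.55% of all genes tested).

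**Figure D2:**
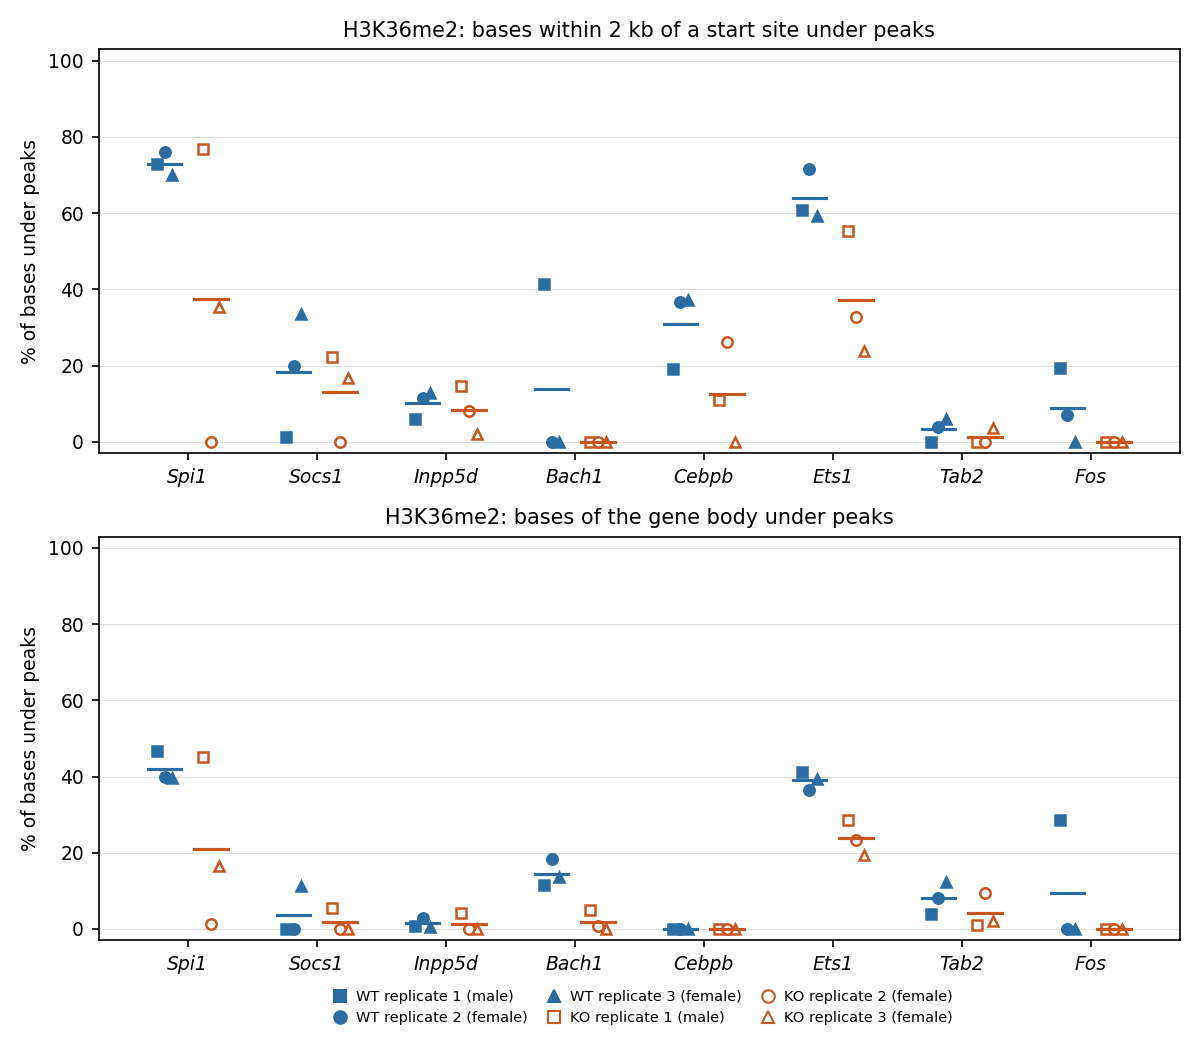
H3K36me2 over the 8 miR-155 targets, as the percent of bases under peaks in the promoter windows (upper panel) and in the gene bodies (lower panel). Each point is 1 list, filled for WT and open for KO, and bars are group means. Spi1 and Ets1 have the highest means in both panels, and KO replicate 1 lies with the WT lists at Spi1.

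Spi1 and Ets1 also had the highest group means over their gene bodies, although in KO replicate 2 Tab2 (9.47%) was above Spi1 (1.44%). Spi1 was covered to 46.7%, 39.9% and 39.7% in WT and to 45.2%, 1.44% and 16.5% in KO, and Ets1 to 41.2%, 36.4% and 39.2% in WT and to 28.5%, 23.5% and 19.5% in KO. Bach1 was covered to 11.6%, 18.3% and 13.7% in WT and to 5.07%, 0.805% and 0% in KO. For Ets1 and Bach1 every KO list was below every WT list, whereas KO replicate 1 of Spi1 lay within the WT range. The mean coverage of Ets1 was 39.0% ± 2.41 in WT and 23.8% ± 4.48 in KO, and that of Bach1 was 14.5% ± 3.43 and 1.96% ± 2.72 (SD, n = 3 each).

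Tab2 had 3.94%, 8.08% and 12.4% in WT and 1.02%, 9.47% and 2.01% in KO. Inpp5d reached at most 4.09%, in KO replicate 1, and Socs1 at most 11.3%, in WT replicate 3. Fos was covered in WT replicate 1 only, to 28.7%, and Cebpb had no H3K36me2 peak over its gene body in any of the 6 lists. These 5 genes did not separate the genotypes.

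Of 17714 genes tested by limma for gene body coverage, 135 were called lower in KO (0.762%) and 2 higher, and 2317 had an unadjusted p under 0.05. None of the 7 targets tested was called, which does not show that they were unchanged, and 1 of them, Bach1, had an unadjusted p under 0.05. The log2 change of Bach1 was −2.78 with a standard error of 0.90 (adjusted p = 0.332 by limma), and those of Ets1 and Spi1 were −0.70 with a standard error of 0.42 and −1.78 with a standard error of 1.08 (adjusted p = 0.382 for both). All 7 changes were below 0, with a median of −1.08 against −1.41 over all genes tested. Every KO list was below every WT list at 2 of 7 targets, against 22.5% of all genes tested, and above at 0 of 7, against 0.102%. Without KO replicate 1, 2663 genes were called, 15.0% of those tested being lower in KO, and Bach1 was among them with a log2 change of −3.51 (adjusted p = 0.0239 by limma). Spi1 then had −2.72 (adjusted p = 0.136 by limma) and Ets1 −0.83 (adjusted p = 0.0636 by limma), and the other 4 targets ranged from −1.63 for Fos to −0.59 for Tab2. Every remaining KO list was below every WT list at 4 of 7 targets (Spi1, Inpp5d, Bach1, Ets1), against 43.3% of all genes tested. In this setting only female KO lists remain while WT keeps its male list, and with female lists alone Bach1 was not called. With all lists, leaving out 1 list at a time moved the change of Spi1 between −2.72 and −0.60, that of Tab2 between −1.78 and −0.59 and that of Fos between −2.45 and 0, and it turned the sign of Socs1 (−1.21 to 0.90) and Inpp5d (−1.17 to 0.027). Division by the genome share of each list moved the median over all genes tested from −1.41 to −0.45, and the changes of Ets1 (0.50), Tab2 (0.13) and Inpp5d (0.014) were above 0 and that of Bach1 was −1.36, with none of the 4 called.

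**Figure D3:**
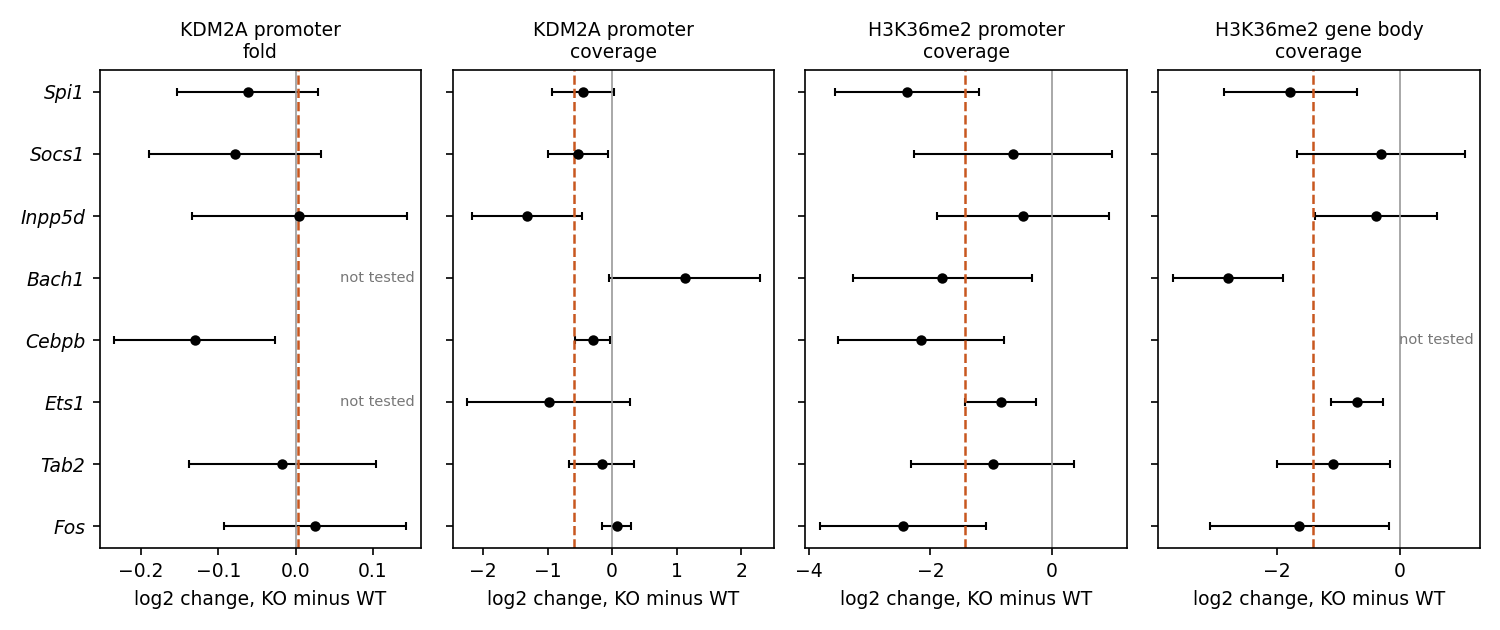
Log2 change (KO minus WT) of each miR-155 target in the 4 measures, as points with standard errors from limma. The solid line marks 0 and the dashed line the median of all genes tested, and genes that did not pass the filter of a measure are marked as not tested. In both H3K36me2 panels all points are below 0 and scatter around the median of all genes, −1.44 for promoters and −1.41 for gene bodies.

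The peak maps of Spi1, Ets1 and Bach1 show where the mark lay. On Spi1, H3K36me2 covered 99.4%, 86.6% and 80.5% of the stretch from the 5′ end to the last start site (14.4 kb) in WT and 93.3%, 3.34% and 38.2% in KO, but at most 8.85% of the rest of the gene in any list. The widest peak over Spi1 was 15.1 kb long in both WT replicate 1 and KO replicate 1, and the only peak of KO replicate 2 was 481 bases long. On Ets1, 76.9%, 68.8% and 75.7% of the stretch up to its last start site (60.2 kb) was covered in WT and 55.1%, 47.4% and 38.7% in KO, and at most 6.32% of the rest. The H3K36me2 domain of both genes ended near the internal start sites with the recurring KDM2A peak. These stretches were chosen after the maps were seen and were not tested.

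The number and width of the H3K36me2 peaks on Ets1 overlapped between genotypes, apart from the widest peak. Over the gene body there were 13, 16 and 12 peaks in the WT lists and 23, 14 and 19 in the KO lists. The median width of the peaks over the gene or its windows was 2450, 1310 and 5094 bases in WT and 888, 1837 and 726.5 bases in KO, KO replicate 2 being above WT replicate 2. The widest peak was 9.83 kb, 16.8 kb and 9.81 kb long in WT and 8.74 kb, 5.42 kb and 5.31 kb in KO. The median width of all H3K36me2 peaks of a list was 858, 1019 and 939 bases in WT and 661, 873 and 677 bases in KO, and KO replicate 2 was above WT replicate 1. On Bach1 the WT peaks of replicates 2 and 3 lay between 2.3 kb and 16.1 kb downstream of the TSS, and the KO lists held 2 peaks in replicate 1, 1 in replicate 2 and none in replicate 3.

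**Figure D4:**
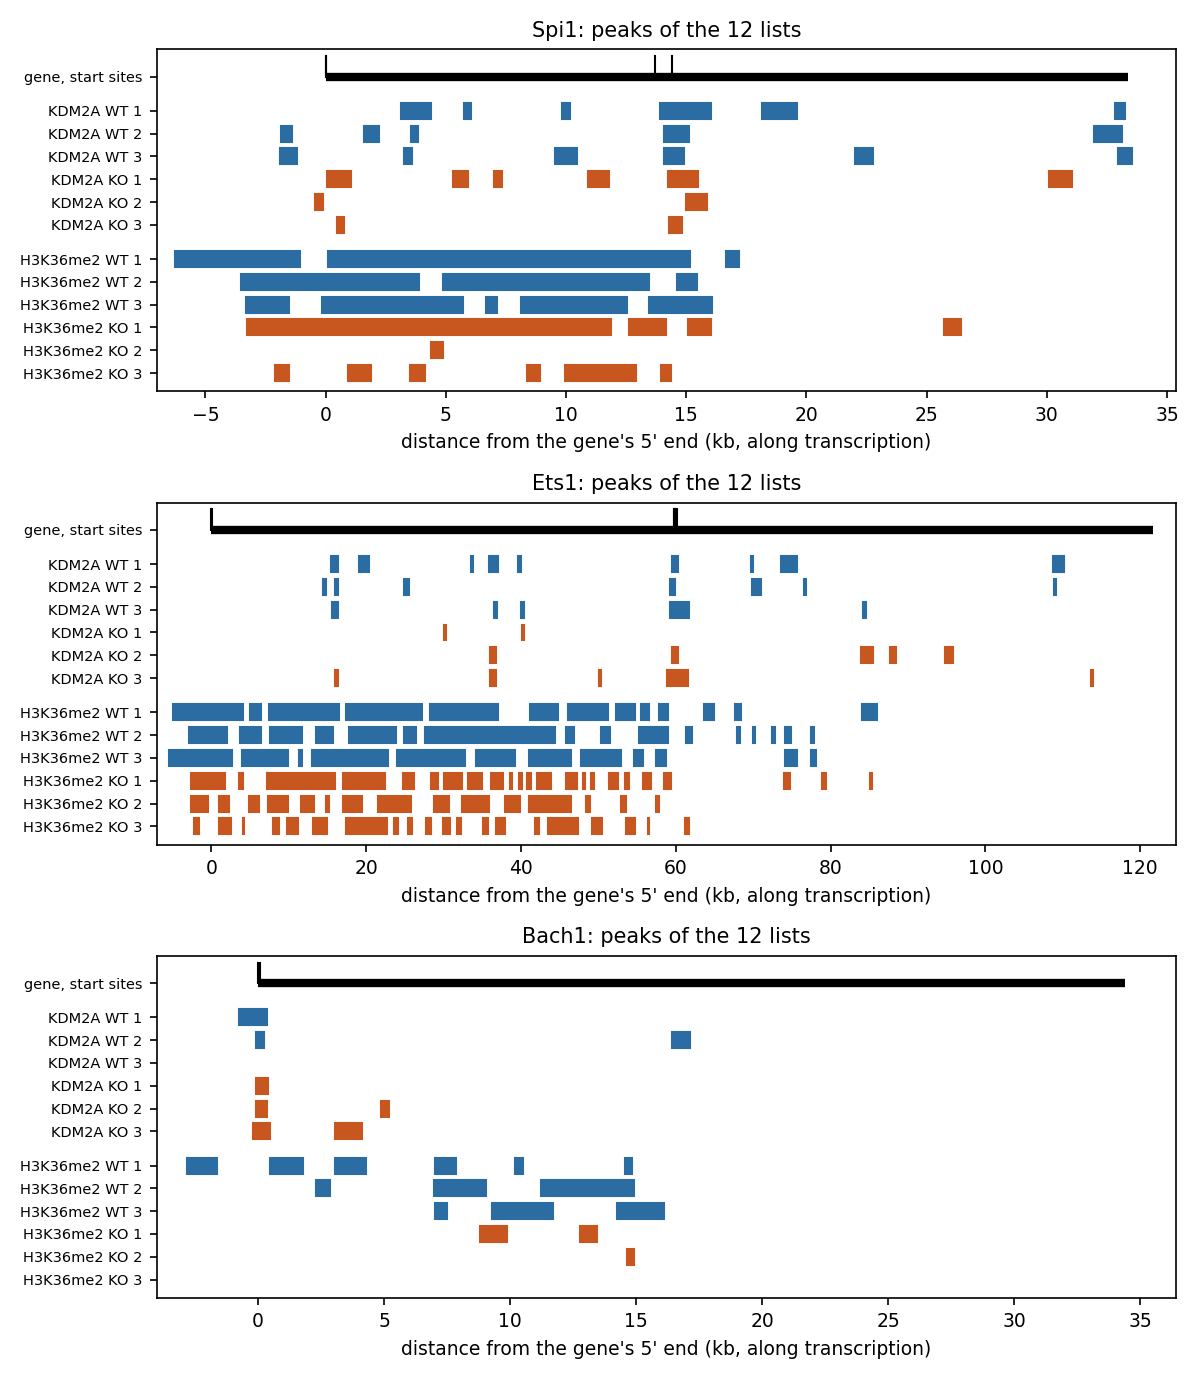
Peaks of the 12 lists along Spi1, Ets1 and Bach1, drawn against the distance from the 5′ end of the gene in kb, with WT in blue and KO in orange and 1 row for each list. The black bar is the gene and the ticks above it are annotated start sites. H3K36me2 peaks fill the stretch before the internal start sites of Spi1 (14.4 kb) and Ets1 (60.2 kb) in WT, and KDM2A peaks recur at those start sites.

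The bases shared by KDM2A and H3K36me2 peaks in the promoter windows differed between targets. At Spi1, 59.2%, 72.3% and 77.4% of the KDM2A-covered bases also lay under H3K36me2 in WT, and 64.6%, 0% and 13.3% in KO. At Ets1, no base was shared in 4 of the 5 replicates with a KDM2A peak there, and 12.6% of the KDM2A-covered bases were shared in KO replicate 3. At Tab2 and Bach1 no base was shared in any list with a KDM2A peak. Shared bases at Cebpb were between 3.78% and 9.17% in WT and 0% in the 3 KO lists. At Inpp5d they ranged from 7.70% to 57.8% in WT and from 0% to 82.7% in KO. Socs1 had 0%, 10.2% and 30.0% in WT and 8.75%, 0% and 18.0% in KO, and Fos had 20.5%, 6.25% and 0% in WT and 0% in the 3 KO lists. The KDM2A and H3K36me2 lists came from separate libraries, and the differences were not tested.

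A further 20 genes reported as miR-155 targets gave the following counts. KDM2A was bound at 19 of 20 in both genotypes and at 16 in all 6 lists, against 39.4% and 26.4% of protein-coding genes. An 8-base match stood in the 3′ UTR of 6 of 20, against 3.19% of genes with a 3′ UTR. None was called by limma in any of the 4 measures. All 16 tested for promoter H3K36me2 and all 13 tested for gene body H3K36me2 had log2 changes below 0, as had 18336 of all 21559 promoters and 15577 of all 17714 gene bodies tested. Their medians were −1.20 and −1.29, against −1.44 and −1.41 over all genes tested. Every KO list was below every WT list at 5 of 16 promoters (among them Jarid2, Myd88, Peli1 and Trp53inp1), against 18.6% of all genes tested, and at 6 of 13 gene bodies (Jarid2, Myd88, Picalm, Rheb, Sla, Trp53inp1), against 22.5%. After centring, the same held for the KDM2A fold at Jarid2 alone, 1 of 16 against 5.45% of all genes tested. For KDM2A promoter coverage it held at Myd88, Picalm and Rhoa, 3 of 19 against 11.0%.

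Myd88, the adaptor of Toll-like receptors, had the lowest change of these genes over the gene body. Its H3K36me2 coverage was 11.9%, 23.7% and 9.22% in WT and 0% in all 3 KO lists (adjusted p = 0.109 by limma). Jarid2, a partner of the Polycomb complex PRC2, had 22.8%, 21.6% and 22.1% in WT and 14.1%, 5.23% and 4.48% in KO, and its KDM2A folds were 4.57, 3.82 and 3.49 in WT against 3.08, 3.29 and 3.39 in KO. Without KO replicate 1 both genes were called by limma for promoter coverage (adjusted p of 0.0353 and 0.0238) and for gene body coverage (adjusted p of 0.0302 and 0.00837), and Foxo3 for gene body coverage, which makes 2 of 16 promoters and 3 of 13 gene bodies, against 8.38% and 15.0% of all genes tested called lower in that setting. With female lists alone, Jarid2 was called over the gene body (log2 change −1.97, adjusted p = 0.0231 by limma), among 2196 calls in 17714 genes tested. No other further target was called with female lists alone.

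For each target the protein-coding gene on another chromosome with the most similar profile was found by the Euclidean distance over 12 values, the KDM2A promoter coverage and the H3K36me2 gene body coverage in 6 lists each. These were Rock2 for Tab2 (a distance of 9.36 percentage points), Unk for Inpp5d (10.3), Zfp101 for Bach1 (11.0), Stk11 for Cebpb (11.1), Hexim1 for Fos (22.8), Sept9 for Spi1 (22.8), Cmss1 for Ets1 (22.9) and Myl6 for Socs1 (27.5).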

How the data were processed

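Splenic B cells had been crosslinked with EGS and 1% formaldehyde, and chromatin (13.5 µg for KDM2A, 1 µg for H3K36me2) immunoprecipitated. Per the labels and the study's methods, reads had been mapped with BWA (genome build GRCm38) and MACS2 had been run by the authors for each library on its own, in the nf-core/chipseq pipeline, which gave 1 list of broad peaks per library. The deposited fold is a linear ratio over control, not normalized between lists, and the deposited −log10 p and −log10 q are those of the peak caller (smallest −log10 q 1.0). MACS2 options and the versions of the single tools are not given in the sources used here. The 8 genes, the 20 further targets and the markers were chosen with earlier results of these data known. All were reported by the rule that every listed target is accounted for, with further targets named where a test or separated groups single them out, and 1 most similar gene per target. TSS, gene bodies and 3′ UTRs came from GENCODE M21, promoters and the microRNA from RefSeq (promoter entries were found for Socs1, Inpp5d, Bach1, Cebpb, Tab2 and Fos). Fold (log2, centred) and coverage (log2 of percent + 1, mean of at least 1%) were tested with limma 3.58.1 (lmFit, eBayes with a trend, genotype only, Benjamini-Hochberg, 0.05) in R 4.3.3 over all genes. Tested on simulated data with known changes, the fit of the fold recovered most changes of the larger sizes. The coverage fits recovered a part of the very large changes and none of the smaller ones. In the lists themselves, the log2 changes of the KDM2A promoter fold lay between −0.45 and 0.47 over all genes tested, short of those larger sizes. A lack of calls in fold or in coverage therefore does not show a lack of change. With 3 against 3 lists an exact permutation test could not go below 0.1. Python 3.11.15, numpy 2.4.6 and pandas 2.3.3 were used. Alternatives were window size, start site, a −log10 q of 2, equal numbers of peaks, scaling, pseudocount, filters, sex, the replicate block and leaving out each list. The input libraries were not analysed here, and a few listed genes are not reported by name.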

Additional observations from a re-analysis of the deposited data

Results flagged for a closer look

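In 8 of 29 member values compared, the male pair of lists (replicate 1) moved opposite to every female KO list against every female WT list. By measure these were 1 of 6 for the KDM2A fold, 3 of 8 for KDM2A coverage, 3 of 8 for H3K36me2 promoters and 1 of 7 for H3K36me2 gene bodies, against 18.2%, 8.79%, 16.7% and 20.8% of all genes tested. With 1 male list per genotype this was not tested. The KDM2A promoter fold of Tab2 changed by 0.458 (KO minus WT) in the male pair and by −0.754 to −0.258 in females. KDM2A promoter coverage in the male pair changed by 1.79 percentage points at Spi1, −16.8 at Bach1 and −22.1 at Fos, against −12.1 to −4.22, 3.42 to 16.6 and 1.33 to 28.9 in females. H3K36me2 promoter coverage in the male pair changed by 4.07 points at Spi1, 21.2 at Socs1 and 8.82 at Inpp5d, against −76.1 to −34.5, −33.6 to −3.15 and −10.7 to −3.37 in females. H3K36me2 gene body coverage of Inpp5d changed by 3.37 points in the male pair and by −3.01 to −0.651 in females. The male KO H3K36me2 list covered 3.63% of the genome and the female KO lists 1.59% and 1.44%, and the part of this difference in the values above was not tested.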

How the results depend on the processing

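Of 478 values of the targets under alternatives, 431 kept their direction and side of the threshold, 46 changed sign and 1 (Bach1 without KO replicate 1) passed it. None of the targets passed 0.05 by limma under any other setting tried. The cause of the changes was not tested. Dividing coverage by the genome share gave log2 changes of 0.28 (Spi1), 0.22 (Socs1), 0.45 (Cebpb) and 0.56 (Tab2) for KDM2A promoters, 0.34 (Socs1), 0.51 (Inpp5d) and 0.38 (Ets1) for H3K36me2 promoters, and 0.014 (Inpp5d), 0.50 (Ets1) and 0.13 (Tab2) for H3K36me2 gene bodies. This scaling moves all genes together, and their medians went from −0.59 to 0.0052, from −1.44 to −0.54 and from −1.41 to −0.45. The KDM2A fold of Inpp5d became −0.17 in females, −0.059 without centring, −0.0066 with peaks in 4 or more lists, −0.069 in a 5 kb window and −25.2 percentile points, and that of Fos −0.038 without centring, −0.022 in a 1 kb window and −0.931 points. Without centring the median over all genes was −0.061, and by rank it was −5.94 points, so both values of Fos and the uncentred value of Inpp5d lay above the common shift. KDM2A coverage became 0.72 at Spi1 (5′ end only), 0.26 at Ets1 (females) and −0.37 at Fos (5 kb). H3K36me2 became 1.15 at the Socs1 promoter (−log10 q of 2), 0.19 at Inpp5d (5 kb) and 0.013 over Tab2 (equal numbers of peaks).

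Leaving out 1 list, the KDM2A fold ranged from −0.15 to 0.16 (Inpp5d), −0.085 to 0.056 (Tab2) and −0.052 to 0.077 (Fos), and KDM2A coverage from −0.87 to 0.035 (Socs1), −0.20 to 2.22 (Bach1), −2.10 to 0.44 (Ets1), −0.36 to 0.0056 (Tab2) and −0.062 to 0.25 (Fos). H3K36me2 ranged from −1.85 to 0.82 (Socs1) and −0.998 to 0.17 (Inpp5d) at promoters, and from −1.21 to 0.90 (Socs1) and −1.17 to 0.027 (Inpp5d) over gene bodies. Genes called ranged from 0 to 1807 for H3K36me2 promoters and from 72 to 2663 for gene bodies, and targets bound in 1 genotype only from 0 to 1 (Bach1 without WT replicate 1 or 2, Ets1 without KO replicate 2 or 3).

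Against 137 genes called for gene bodies, 73 were called after scaling, 57 with equal numbers of peaks, 2196 in females, 29 among protein-coding genes, 70 with a pseudocount of 10 and 0 at a −log10 q of 2. With the replicate number as a block, 0 genes were called for gene bodies and no other call changed. Deviations of same-numbered lists from their group means had correlations between −0.015 and 0.033. For gene bodies each list correlated best with the list of its own number, and replicate 1 was male in both genotypes. These values do not decide whether the numbers pair the lists. Targets bound in 1 genotype only were 2 at a −log10 q of 2, 1 with equal numbers of peaks and 1 in females. The share over all genes was not taken in these settings or with 1 list left out. The number of targets with all KO lists lower was 2 of 6 for the rank of the fold (11.5%), 0 of 6 H3K36me2 promoters and 0 of 2 gene bodies at a −log10 q of 2 (3.62% and 7.63% of all genes tested), and 0 of 8 and 1 of 7 after scaling (8.84% and 8.41%). With all KO lists higher it was 1 of 8 (Bach1) for KDM2A coverage with equal numbers of peaks (1.91%) and, after scaling, 2 of 8 for KDM2A (9.04%) and 1 of 8 for H3K36me2 promoters (1.55%). Without KO replicate 1, all remaining KO lists were lower at 2 of 8 H3K36me2 promoters (34.0%) and 4 of 7 gene bodies (43.3%). These separation settings were chosen after seeing the data. Depth is unknown and limits how far shorter lists can be read.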
